A study of Macaca mulatta with 30 samples.

Results

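The genes described here encode the proteins that bring synaptic and other secretory vesicles to fusion with a membrane: the SNARE proteins themselves (syntaxins, SNAP and VAMP proteins), the syntaxin-binding proteins, synaptotagmins, complexins, the RIM and Munc13 proteins of the active zone, the vesicle proteins SV2 and synapsin, and the factors that take used SNARE complexes apart. They were chosen by name in the deposited gene table (symbols of the STX, STXBP, VAMP, SNAP, NAP, NSF, SYT, SV2, SYN, RIMS, UNC13 and CPLX families). Of 68 symbols that matched, 67 had a value of 10 or more in at least 6 libraries and were kept, of 12935 genes that passed this filter and 15521 genes in all. CPLX4, the symbol that did not pass, reached 10 in 0 libraries. Just inside the limit lay VAMP8, UNC13D, STX11 and STXBP2, which reached 10 in 7, 9, 15 and 22 libraries. UNC13A and NAPG had no row in the gene table used and so were not analysed here.

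Cortical area 32, a medial prefrontal region, was dissected from male rhesus macaques that drank a solution of 4% ethanol by free choice, 22 hours a day, for more than 12 months. All 30 animals drank, so the low drinkers are the baseline and there is no unexposed group. Low drinkers (LD, n = 10) met none of the other definitions. Binge drinkers (BD, n = 7) took at least 2 g/kg on at least 55% of days and reached a blood ethanol of 80 mg/dl at least yearly, heavy drinkers (HD, n = 7) took at least 3 g/kg on at least 20% of days, and very heavy drinkers (VHD, n = 6) averaged more than 3 g/kg daily and passed 4 g/kg on at least 10% of days. The animals came from cohorts 4 (n = 9), 5 (n = 8), 7b (n = 5) and 7a (n = 8), with mean ages at the end of drinking of 9.98, 7.15, 7.18 and 5.70 years. VHD animals came from cohorts 5 (4 animals) and 7a (2 animals) and LD animals from cohorts 4 (4 animals), 7a (3 animals) and 7b (3 animals), so cohort 7a alone holds both. Cohorts 4, 5, 7a and 7b held 1, 3, 2 and 1 HD animals and 4, 1, 1 and 1 BD animals. Drinking was self-selected, so a category and whatever led an animal into it cannot be told apart.

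At a nerve terminal, a VAMP protein on the vesicle and a syntaxin with SNAP-25 on the plasma membrane zip into a bundle that pulls the membranes together. Munc13 and RIM proteins prepare this assembly, complexin holds it ready and synaptotagmin triggers it when calcium enters. NSF and its adaptors, the alpha- and beta-SNAP proteins NAPA and NAPB, then pull the spent bundle apart so that its parts can be used again.

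Each library came from 1 animal, and the limma p-values weigh a difference against the spread between these animals. Values are normalized reads, the reads over a gene's exons after the authors scaled each library to a common upper quartile. The libraries held 4.39 to 13.99 M reads in the measured exons (M, 10 to the power of 6), and 1 read was worth 0.656 to 2.07 normalized reads, so genes near the limit of 10 rest on few reads. None of the 43 cell type markers in the table was at 0 in any library, and the 5 of neurons, SNAP25 itself among them, summed to between 35960 and 43330 normalized reads in LD animals, 36564 and 40726 in BD animals, 36291 and 45139 in HD animals and 36041 and 43658 in VHD animals. In such bulk tissue, fewer cells of a type and less RNA per cell cannot be told apart.

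Levels between genes were compared as normalized reads per kilobase of measured exon, with means ± SD over the 30 animals. SNAP25, the plasma membrane SNARE of nerve terminals, stood highest at 7788 ± 669. The calcium sensor gene SYT1 followed at 3808 ± 357. The SNARE recycling genes NAPB and NSF were at 2330 ± 300.04 and 2290 ± 207, and SYT11, a synaptotagmin that does not bind calcium, at 2273 ± 116. Differences between neighbours from NAPB to SYT11 were smaller than the spread between animals.

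Within families, 1 or 2 members carried most of the RNA. VAMP2, the main vesicle SNARE of the forebrain, was at 1800 ± 350 per kilobase, against 67.6 ± 9.05 for VAMP1, its relative in fast-spiking and brainstem neurons. STX1A, a syntaxin of neurotransmitter release, was at 1743 ± 166. STX3, STX4, STX11 and STX19, also of the plasma membrane, ranged from 1.89 ± 0.75 for STX11 to 118 ± 19.8 for STX4. The 9 syntaxins of the endosome and Golgi apparatus were all intermediate, from 84.7 ± 14.7 (STX10) to 453 ± 46.2 (STX12).

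Among the genes of release control, SYN2 and SYN1, which tether vesicles to one another and to actin, were at 1441 ± 189 and 1390 ± 245, and SYN3 at 98.2 ± 17.8. CPLX2 was at 1164 ± 179 and CPLX1 at 423 ± 94.1. SV2A, the binding site of the drug levetiracetam, was at 1062 ± 80.0, SV2B at 796 ± 73.1 and SV2C at 79.7 ± 26.4. SNAP91, a neuronal clathrin adaptor that the name rule takes in and that is no SNARE, was at 1081 ± 77.1. The lowest levels were those of STX11, UNC13D (1.92 ± 1.23) and STXBP2 (7.08 ± 2.96), whose products are best known for granule release in blood cells.

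**Figure D1:**
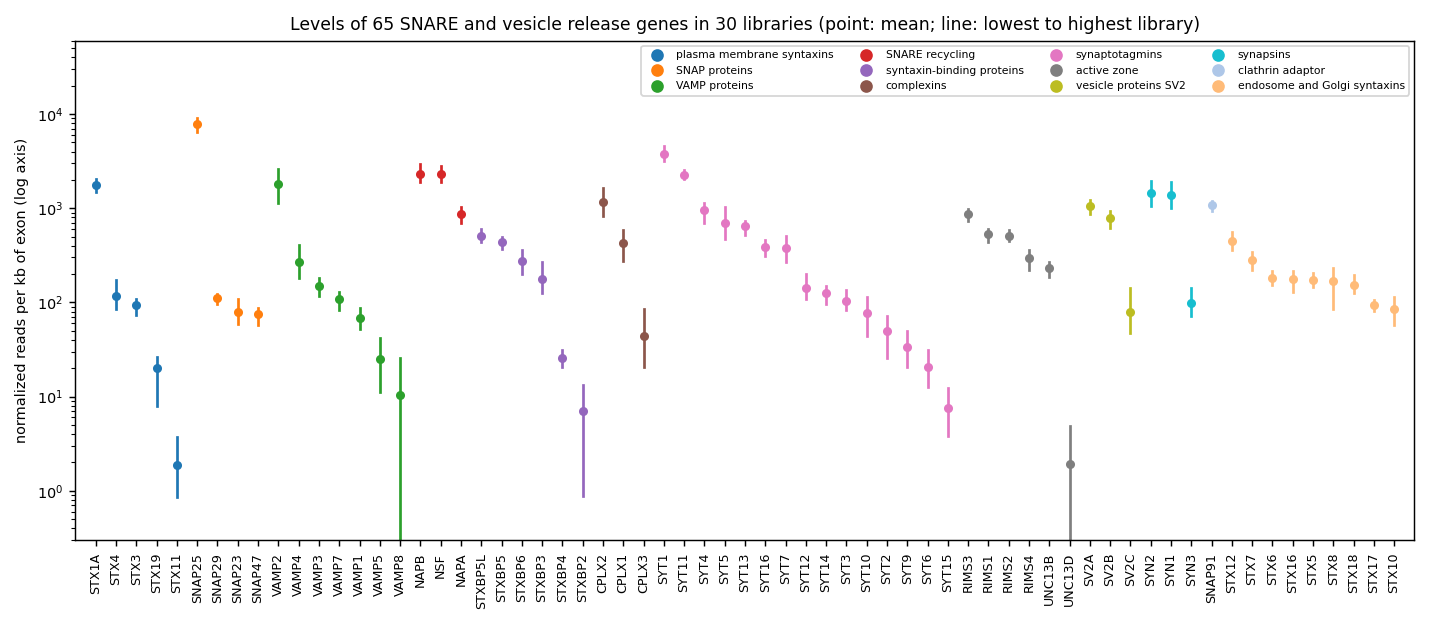
Level of 65 of the 67 genes as normalized reads per kilobase of measured exon on a log axis, with the mean over the 30 animals as a point and the range over animals as a line, grouped by role. SNAP25 and SYT1 lie highest at 7788 and 3808, and STX11 and UNC13D lowest at 1.89 and 1.92, where the lower ends of the lines for UNC13D and VAMP8 are cut at the edge of the axis because a library had 0 reads.

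The spread between animals was close to that of other genes. The SD of the log2 value over all 30 animals had a median of 0.19 over the 67 genes and 0.22 over all 12935 tested genes. Of the 67 genes, 39 lay below the median of all tested genes. SYT11 varied least, with an SD of 0.07 on the log2 scale, followed by STX17, SNAP29, RIMS2 and SNAP91 with 0.10 each, while UNC13D (1.005), VAMP8 (0.87) and STXBP2 (0.73) varied most and were also among the lowest in level. LD replicate 3, the shallowest library at 4.39 M reads, held the lowest value of 8 genes and the highest of 5. VHD replicate 6 was lowest for 6 genes, and BD replicates 2 and 7 and HD replicate 4 were highest for 6 each. VAMP2, SYT3 and SYT7 were each lowest in VHD replicate 6 and highest in BD replicate 2.

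The core machinery of transmitter release is given across the drinking categories as means ± SD of log2(normalized reads + 1). SNAP25 was at 13.95 ± 0.13 in LD animals, 13.94 ± 0.08 in BD animals, 13.97 ± 0.19 in HD animals and 13.98 ± 0.09 in VHD animals. STX1A was at 11.87 ± 0.11 in LD animals, 11.88 ± 0.17 in BD animals, 11.79 ± 0.12 in HD animals and 11.81 ± 0.16 in VHD animals. In both genes the category means lay within about 1 SD of one another.

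VAMP2 stood at 11.85 ± 0.23 in LD animals, 12.01 ± 0.31 in BD animals, 11.91 ± 0.32 in HD animals and 11.74 ± 0.29 in VHD animals. VAMP1 stood at 7.81 ± 0.20 in LD animals, 7.80 ± 0.18 in BD animals, 7.59 ± 0.14 in HD animals and 7.65 ± 0.16 in VHD animals. All of these ranges overlapped. Nearly all tested genes did the same: in VHD, HD and BD, 0.023%, 0.015% and 0% of them had all animals above or all below the LD animals.

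For the calcium sensors, SYT1 was at 14.12 ± 0.16 in LD animals, 14.08 ± 0.09 in BD animals, 14.26 ± 0.10 in HD animals and 14.17 ± 0.08 in VHD animals. SYT2, the fast sensor of parvalbumin interneurons, was at 8.66 ± 0.38 in LD animals, 8.46 ± 0.29 in BD animals, 8.29 ± 0.42 in HD animals and 8.35 ± 0.50 in VHD animals. SYT7, a slower sensor that works in asynchronous release, was at 11.23 ± 0.23 in LD animals, 11.29 ± 0.25 in BD animals, 11.11 ± 0.27 in HD animals and 11.03 ± 0.17 in VHD animals. SYT2 varied more between animals than the other two.

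Complexin 1 (CPLX1) was at 9.77 ± 0.34 in LD animals, 10.00 ± 0.30 in BD animals, 9.71 ± 0.30 in HD animals and 9.68 ± 0.30 in VHD animals. CPLX2 was at 10.01 ± 0.23, 10.00 ± 0.26, 9.89 ± 0.25 and 9.97 ± 0.15 in that order, and the active zone scaffold gene RIMS1 at 11.95 ± 0.12, 11.94 ± 0.07, 12.00 ± 0.16 and 11.99 ± 0.06. The category means of each of the 3 genes lay within about 1 SD of one another.

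Among vesicle proteins, SV2A was at 12.24 ± 0.10 in LD animals, 12.17 ± 0.14 in BD animals, 12.15 ± 0.08 in HD animals and 12.13 ± 0.10 in VHD animals. SV2B was at 13.10 ± 0.16, 13.03 ± 0.13, 13.14 ± 0.11 and 13.15 ± 0.12 in that order, and SV2C, the striatal and midbrain form, at 7.63 ± 0.39, 7.32 ± 0.34, 7.28 ± 0.53 and 7.58 ± 0.47. SYN1 was at 12.01 ± 0.29 in LD animals, 12.21 ± 0.24 in BD animals, 12.13 ± 0.23 in HD animals and 12.01 ± 0.24 in VHD animals, and SYN2 at 11.85 ± 0.20, 11.92 ± 0.16, 12.01 ± 0.16 and 11.83 ± 0.23. None of the 5 genes had a category whose animals stood clear of the LD animals, which also held for nearly all tested genes.

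The same core genes were also set side by side across cohorts. Cohort means of log2 values were 13.93 ± 0.11 in cohort 4, 13.94 ± 0.13 in cohort 5, 13.99 ± 0.16 in cohort 7b and 13.98 ± 0.13 in cohort 7a for SNAP25. They lay between 11.82 and 11.92 for STX1A, 7.63 and 7.76 for VAMP1 and 11.74 and 11.95 for VAMP2. They lay between 14.08 and 14.27 for SYT1, 8.26 and 8.73 for SYT2, 10.99 and 11.27 for SYT7, 9.71 and 9.90 for CPLX1, 9.86 and 10.04 for CPLX2 and 11.92 and 11.98 for RIMS1. For SV2A, SV2B, SV2C, SYN1 and SYN2 they lay between 12.14 and 12.28, 13.04 and 13.17, 7.32 and 7.64, 12.07 and 12.09, and 11.86 and 11.99. The recycling genes NAPA, NAPB and NSF had cohort means between 10.47 and 10.51, 13.09 and 13.18, and 13.09 and 13.22.

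In the model of category and cohort fitted to all 12935 genes with limma, 0 of these 18 core genes passed the F test over drinking categories, with adjusted p from 0.861 to 0.965 after Benjamini-Hochberg adjustment. The F test over cohorts gave limma adjusted p from 0.560 to 0.998. At an unadjusted p under 0.05, the category test held NAPA (p = 0.00226), NSF (p = 0.0471) and SYT1 (p = 0.0493) and the cohort test SYT1 (p = 0.0296), which is 3 and 1 of 18 beside 5.62% and 8.04% of all tested genes. In HD against LD, 5 of the 18 (27.8%) had an unadjusted p under 0.05, NAPA, NAPB, NSF, SYT1 and SYT2, beside 12.5% of all tested genes, and in VHD and BD against LD 1 each (NAPA), beside 3.5% and 3.05%.

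Over all 67 genes, limma called 0 at an adjusted p under 0.05 in any of the 10 comparisons made, and it called 0% of all tested genes in each of them as well. The genes below are therefore named with their values and none of them passed the test. EdgeR's quasi-likelihood test on the recovered reads also called 0. At an unadjusted p under 0.05 it held 5 of the 67 genes in VHD, 14 in HD and 3 in BD against LD, 7 for the slope and 3 for any category, beside 3.8%, 11.7%, 2.67%, 6.29% and 5.16% of all tested genes.

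**Figure D2:**
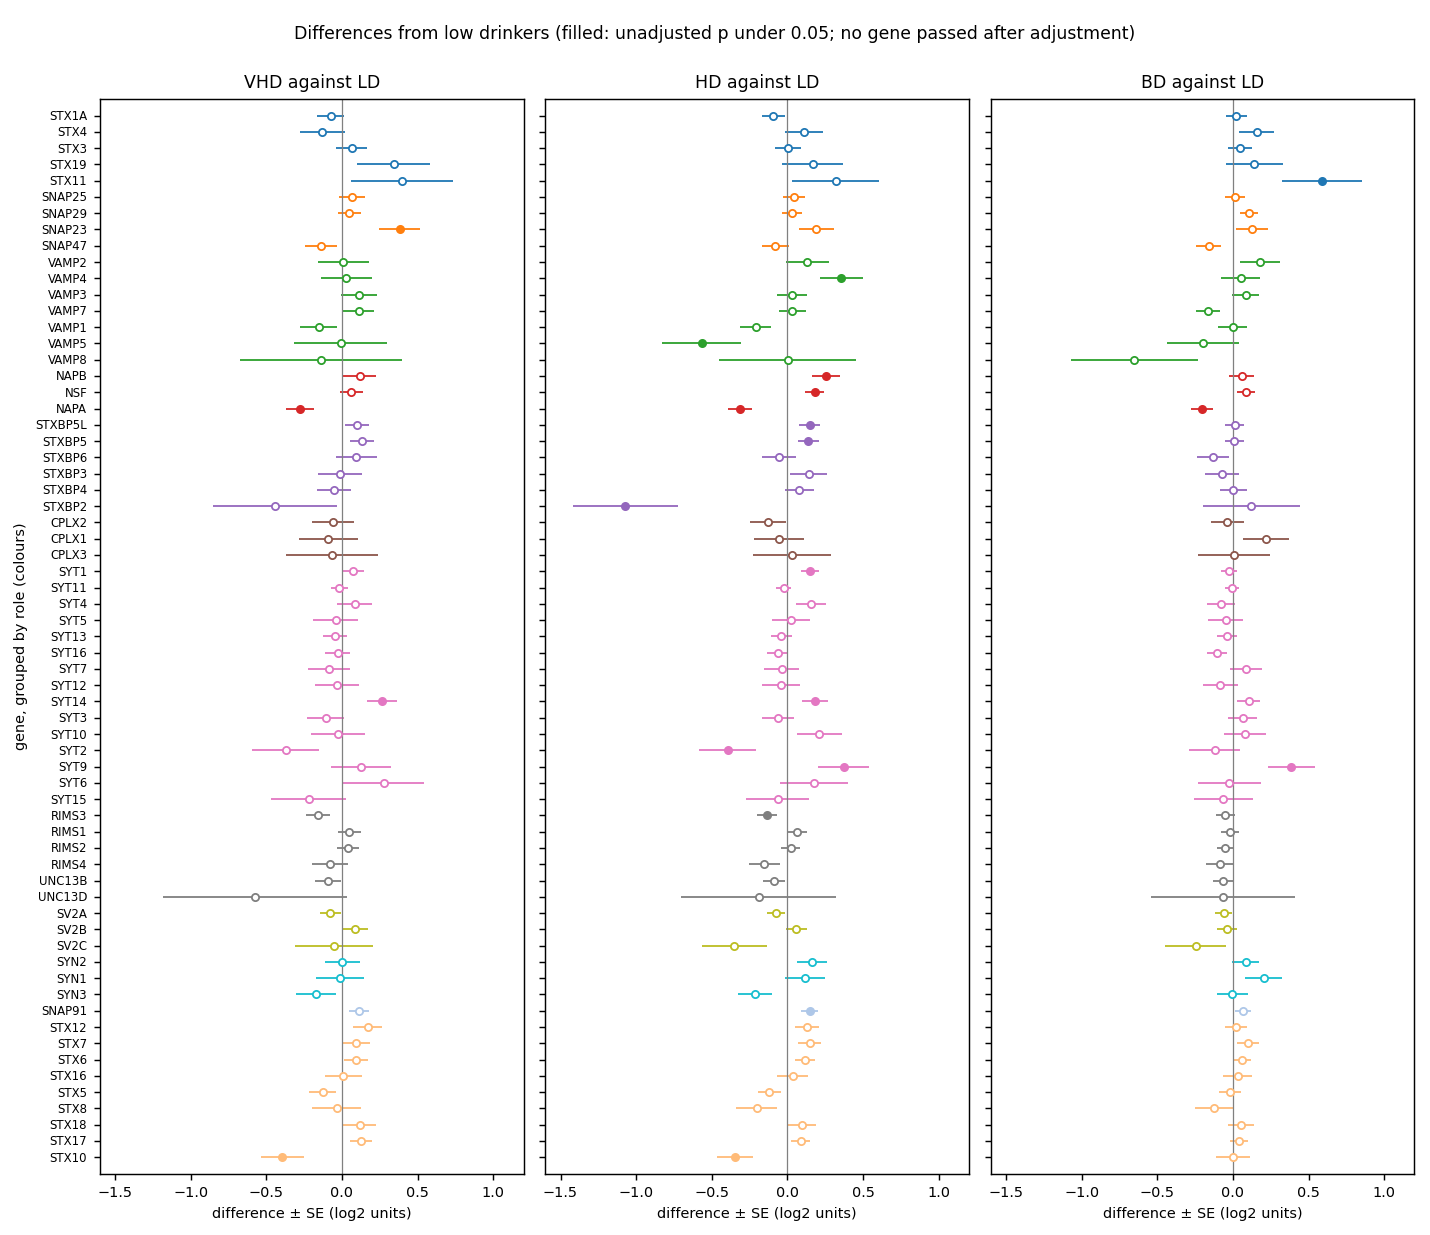
Differences in log2(normalized reads + 1) of 65 of the 67 genes for VHD, HD and BD, each against LD, as limma estimates (points, filled at an unadjusted p under 0.05) with the SE as bars, grouped by role. NAPA lies below 0 for VHD, HD and BD at −0.28, −0.31 and −0.20, and STXBP2 lowest for HD at −1.07.

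Very heavy drinkers were set against low drinkers to compare the extremes of intake. SNAP23, the widely expressed relative of SNAP-25 that serves membrane traffic outside nerve terminals, had 176, 204 and 249.9 normalized reads as lowest, median and highest value in VHD animals, against 137, 168 and 204 in LD animals. Every VHD animal lay above the LD mean, although the upper part of the LD range reached the VHD median. The limma estimate was 0.38 ± 0.14 (SE) log2 units, with an adjusted p of 0.948.

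SYT14, a synaptotagmin that does not bind calcium, had 503, 708 and 749 normalized reads as lowest, median and highest value in VHD animals and 481, 584 and 695 in LD animals. VHD replicate 4 lay near the bottom of the LD range and the other VHD libraries near or above its top. The estimate was 0.27 ± 0.10 (adjusted p = 0.948, limma), and 0.33 without that library. STX12, an endosomal syntaxin, and SNAP91 followed at 0.17 ± 0.09 and 0.11 ± 0.07, with 6 and 5 of 6 VHD animals above the LD mean, and SNAP91 was at 0.07 without BD replicate 6 or with library number sets in the model.

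On the lower side, NAPA had 1152, 1391 and 1651 normalized reads as lowest, median and highest value in VHD animals, against 1394, 1586 and 1727 in LD animals. Of the 6 VHD libraries 3 lay below every LD library and the others within the LD range. The estimate was −0.28 ± 0.09 (adjusted p = 0.948, limma). STX10, a syntaxin of the trans-Golgi network, had 80.2, 109 and 138 normalized reads in VHD animals and 100.4, 120.2 and 156 in LD animals, with an estimate of −0.39 ± 0.14 and 4 of 6 VHD animals below the LD mean. RIMS3, a short RIM of the active zone, was at −0.16 ± 0.08 and SYT2 at −0.37 ± 0.22.

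In VHD against LD, 4 of the 67 genes (5.97%) had an unadjusted p under 0.05, 2 higher and 2 lower, beside 3.5% of all tested genes (1.76% higher and 1.74% lower). The median difference was −0.01 log2 units over the 67 genes and 0.00 over all tested genes, and 31 of 67 were above 0 beside 49.9% of all genes. By role, all 3 complexins were below 0 (−0.09 to −0.06 log2 units), and 0 of them had an unadjusted p under 0.05. Of 15 synaptotagmins 10 were below 0, but the 1 with an unadjusted p under 0.05, SYT14, was higher. Of 9 endosomal and Golgi syntaxins 6 were above 0, but the 1 with such a p, STX10, was lower. The cohort 7a animals alone, 2 VHD and 3 LD, gave 0.52 for SNAP23, 0.33 for SYT14, −0.23 for NAPA, −0.39 for STX10 and −0.16 for SYT2.

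**Figure D3:**
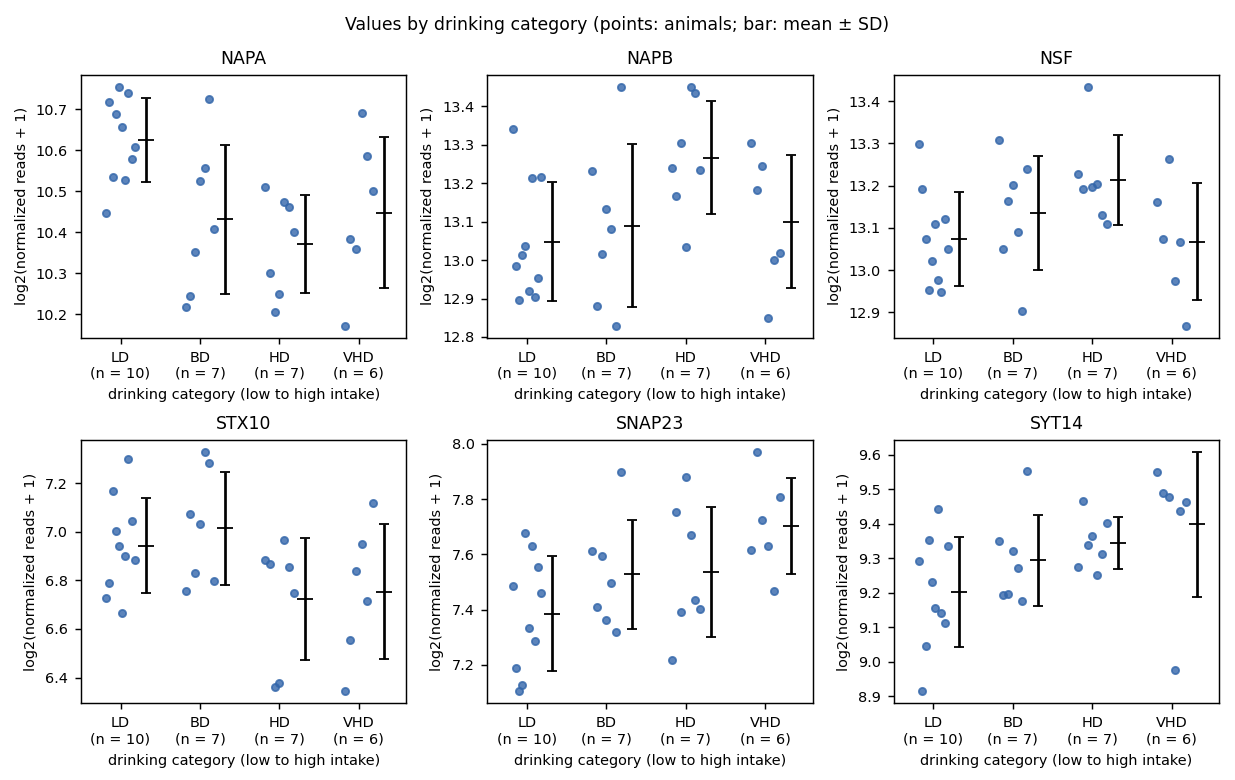
Log2(normalized reads + 1) of NAPA, NAPB, NSF, STX10, SNAP23 and SYT14 in each animal by drinking category, with the mean and SD as bars. NAPA medians are, before the log, 1586 in LD animals, 1357 in BD animals, 1350 in HD animals and 1391 in VHD animals, and in all panels the categories overlap. Nearly all tested genes overlap in this way.

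Heavy drinkers were set against low drinkers next. The 3 genes of SNARE recycling that the table holds did not go one way. NAPA, which encodes alpha-SNAP, had 1181, 1350 and 1457 normalized reads as lowest, median and highest value in HD animals, against 1394, 1586 and 1727 in LD animals. All 7 HD animals lay below the LD mean, and the groups overlapped only at the upper end of HD and the lower end of LD. The estimate was −0.31 ± 0.08 log2 units, with an unadjusted p of 0.000374 and an adjusted p of 0.298 in limma.

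NAPB, which encodes the brain form beta-SNAP, had 8387, 9669 and 11194 normalized reads in HD animals, against 7627, 8186 and 10379 in LD animals (lowest, median and highest). NSF, the ATPase that both recruit, had 8829, 9395 and 11074 in HD animals and 7895, 8545 and 10079.8 in LD animals. In both genes the HD values lay toward the upper part of the LD range, and HD replicate 3 stood apart at the top for NSF. The estimates were 0.26 ± 0.09 for NAPB and 0.18 ± 0.06 for NSF, with 6 and 7 of 7 HD animals above the LD mean and an adjusted p of 0.317 for each (limma).

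The log2 ratio of NAPB to NAPA within an animal was 2.42 ± 0.23 in LD animals, 2.66 ± 0.32 in BD animals, 2.90 ± 0.13 in HD animals and 2.65 ± 0.35 in VHD animals (mean ± SD). It ranged from 2.73 to 3.10 in HD and from 2.16 to 2.90 in LD animals, so that only the upper end of LD met the HD values. This ratio was looked at after the values of both genes were known and was not tested.

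SNAP91 had 3497, 3725 and 3816 normalized reads in HD animals and 2998, 3314 and 3894 in LD animals, an estimate of 0.15 ± 0.06 (0.09 with library number sets). STX10 had 81.2, 115 and 124 in HD animals and 100.4, 120.2 and 156 in LD animals, an estimate of −0.35 ± 0.12. STXBP2, a syntaxin-binding protein of cytotoxic and other secretory blood cells, had 1.67, 8.31 and 21.4 in HD animals and 6.10, 13.6 and 24.8 in LD animals, an estimate of −1.07 ± 0.35 that rests on a handful of reads per library. The HD groups of all 3 genes overlapped the LD animals, as did those of all but 0.015% of tested genes.

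In HD against LD, 15 of the 67 genes (22.4%) had an unadjusted p under 0.05, 9 higher and 6 lower, beside 12.5% of all tested genes (5.87% higher and 6.68% lower). The lowest adjusted p among them was that of NAPA, 0.298 (limma). The higher ones beside NAPB, NSF and SNAP91 were SYT1, VAMP4, SYT9, STXBP5L, SYT14 and STXBP5, at 0.14 to 0.37 log2 units, and the lower ones beside NAPA, STX10 and STXBP2 were VAMP5, SYT2 and RIMS3, at −0.57 to −0.14. STXBP5 and STXBP5L encode tomosyns, which compete with VAMP for syntaxin and SNAP-25. The median difference was 0.03 over the 67 genes, 40 of which were above 0, and 0.00 over all tested genes, of which 50.5% were.

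HD libraries carry the numbers 2, 3, 6, 7, 9, 22 and 29. LD libraries carry 8, 13, 15, 18, 19, 20, 23, 24, 30 and 31. The categories are thus spread unevenly over the library numbers, and the 2 cannot be fully told apart in HD against LD. The HD count depended on 1 library and on library numbers. It was 9 without HD replicate 2, beside 11.1% of all tested genes, and 5 with the library numbers in the model as 4 sets of neighbours, where the share over all tested genes was likewise lower at 4.61%. In that model NAPA was at −0.20, NAPB at 0.22, NSF at 0.10 and STX10 at −0.22. Within cohort 7a (2 HD and 3 LD animals) the estimates were −0.36 for NAPA, 0.27 for NAPB, 0.13 for NSF and −0.41 for STX10, and within cohort 4 (1 HD and 4 LD animals) −0.20, 0.21, 0.06 and −0.26. All 6 oligodendrocyte markers were below 0 in HD against LD (−0.71 to −0.06). Their summed level ran from 3224 to 5746 normalized reads in HD and from 3772 to 10250.2 in LD animals. Mean log2 sums of astrocyte, microglia, mural and excitatory markers were also lower in HD, at 14.92, 10.21, 11.06 and 14.68. In LD animals they were 15.05, 10.36, 11.23 and 14.76. Neuron and endothelial sums were higher in HD (15.31 and 10.41 against 15.24 and 10.32). Precursor and inhibitory sums were about alike (10.67 and 12.41 against 10.68 and 12.41). With the first principal component of the markers in the model, NAPA was at −0.32, NAPB at 0.27, NSF at 0.19 and STX10 at −0.36.

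Binge drinkers were the third group set against low drinkers. SYT9, a calcium sensor of release in limbic and striatal neurons of mice, had 73.9, 87.3 and 122 normalized reads as lowest, median and highest value in BD animals, against 51.0, 61.5 and 95.2 in LD animals. All 7 BD animals lay above the LD mean while 3 LD animals reached into the BD range. The estimate was 0.39 ± 0.16 (adjusted p = 0.999, limma), 0.24 without BD replicate 1, the only BD animal of cohort 7a, and 1.16 within that cohort.

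NAPA had 1190, 1357 and 1691 normalized reads in BD animals and 1394, 1586 and 1727 in LD animals, with 6 of 7 BD animals below the LD mean. Its estimate was −0.20 ± 0.07 (adjusted p = 0.999, limma), −0.21 within cohort 4, −0.50 within cohort 7a and −0.14 without BD replicate 1. STX11 and the widely expressed SNAP29 were at 0.59 ± 0.26 and 0.11 ± 0.06, and VAMP7, a SNARE of late endosomes and lysosomes, and SNAP47 at −0.16 ± 0.08 each. Within cohort 7a SNAP47 was at −0.35, VAMP7 at 0.23 and STX11 at 0.35, and within cohort 4 STX11 was at 0.95. In BD against LD, 3 of the 67 genes (4.48%) had an unadjusted p under 0.05, 2 higher and 1 lower, beside 3.05% of all tested genes (1.56% higher and 1.48% lower). The median difference was 0.01, and 36 of 67 were above 0 beside 50.0% of all genes. All 6 plasma membrane syntaxins were above 0 and all 6 active zone genes below 0, by medians of 0.15 and −0.06. Of these, 1 syntaxin and 0 active zone genes had an unadjusted p under 0.05.

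The 3 comparisons share the LD animals, so a gene with unusual LD values moves in all of them. For NAPA, the estimates side by side were −0.28 in VHD, −0.31 in HD and −0.20 in BD, each against LD.

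A slope from LD through BD and HD to VHD, counted as equal steps, had its smallest p for NAPA, at −0.11 ± 0.03 log2 units per step (p = 0.00147, adjusted p = 0.745, limma). STX10 had −0.14 ± 0.05 and RIMS3 −0.06 ± 0.02. On the positive side SYT14 had 0.09 ± 0.03, SNAP23 0.12 ± 0.04 and SNAP91 0.05 ± 0.02 per step. Within cohort 4 the slopes of SNAP23 and STX10 were 0.005 and −0.09, and with the library number sets in the model those of SNAP91 and RIMS3 were 0.03 and −0.04. NAPA medians were 1586 normalized reads in LD animals, 1357 in BD animals, 1350 in HD animals and 1391 in VHD animals, and those of SNAP23 168 in LD animals, 179.5 in BD animals, 172 in HD animals and 204 in VHD animals. The NAPA median was thus lowest in HD and the SNAP23 median highest in VHD animals.

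For the slope, 7 of the 67 genes (10.4%) had an unadjusted p under 0.05, 3 positive and 4 negative, beside 6.18% of all tested genes (3.12% positive and 3.06% negative). Of the 67 slopes 34 were above 0, beside 49.9% of all genes. For any difference between the 4 categories, 6 did (8.96%), beside 5.62%: NAPA, STXBP2, STX10, SYT9, NSF and SYT1. The lowest adjusted p was 0.745 for the slope and 0.861 for any difference (limma). Slopes were also compared between cohorts, and 0 of the 67 genes had an unadjusted p under 0.05 for a slope that differed, beside 2.24% of all tested genes.

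Cohorts were compared in the same model, with the youngest, 7a, as the baseline. In the oldest cohort, 4, SYT2 had 208, 324 and 518 normalized reads as lowest, median and highest value, against 275, 446 and 528 in cohort 7a. Of the 9 cohort 4 animals 6 lay below the cohort 7a mean, and the ranges overlapped widely. The estimate was −0.47 ± 0.18 (adjusted p = 0.399, limma), the lowest adjusted p of the 67 genes in this comparison.

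SYT13, a synaptotagmin without calcium binding, had 2662, 3127 and 3668 normalized reads in cohort 4 and 3079.9, 3470.3 and 3757 in cohort 7a, an estimate of −0.15 ± 0.07. STX8 and SYT16 were at −0.23 ± 0.13 and −0.11 ± 0.07, and at −0.14 without BD replicate 5 and −0.06 without LD replicate 3. UNC13D, the Munc13 form of cytotoxic granules, had 4.58, 9.18 and 18.3 in cohort 4 and 0, 3.00 and 11.8 in cohort 7a, an estimate of 1.01 ± 0.49 that was 0.37 without BD replicate 1, the library with 0 reads, and 0.65 with the library number sets in the model. SYT6, SYT9 and STXBP4 were at 0.39 ± 0.22, 0.28 ± 0.16 and 0.16 ± 0.09, with SYT9 at 0.44 without BD replicate 1.

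In cohort 4 against 7a, 3 of the 67 genes (4.48%) had an unadjusted p under 0.05, 1 higher and 2 lower, beside 9.15% of all tested genes (4.94% higher and 4.21% lower). Of the 67 differences 25 were above 0, beside 51.8% of all genes, and the median was −0.03. All 7 VAMP genes were below 0, by a median of −0.08, and 0 of them had an unadjusted p under 0.05. The 6 oligodendrocyte markers were all higher in cohort 4, by 0.56 to 0.91 log2 units. Their summed level ran from 3938 to 18645 normalized reads in cohort 4 and from 3679 to 6197 in cohort 7a. Mean log2 sums of mural, astrocyte, precursor and endothelial markers were also higher in cohort 4, at 11.29, 15.11, 10.80 and 10.36. In cohort 7a they were 10.97, 14.94, 10.64 and 10.27. Excitatory and inhibitory sums were lower in cohort 4 (14.71 and 12.33 against 14.79 and 12.43). Neuron and microglia sums were about alike (15.26 and 10.31 against 15.27 and 10.31). With the marker component in the model, SYT6 was at −0.20, SYT9 at −0.05 and SYT16 at 0.02, each with the sign turned, SYT2 was at −0.19, SYT13 at −0.06 and UNC13D at 1.52, while STXBP4 and STX8 were at 0.12 and −0.19.

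**Figure D4:**
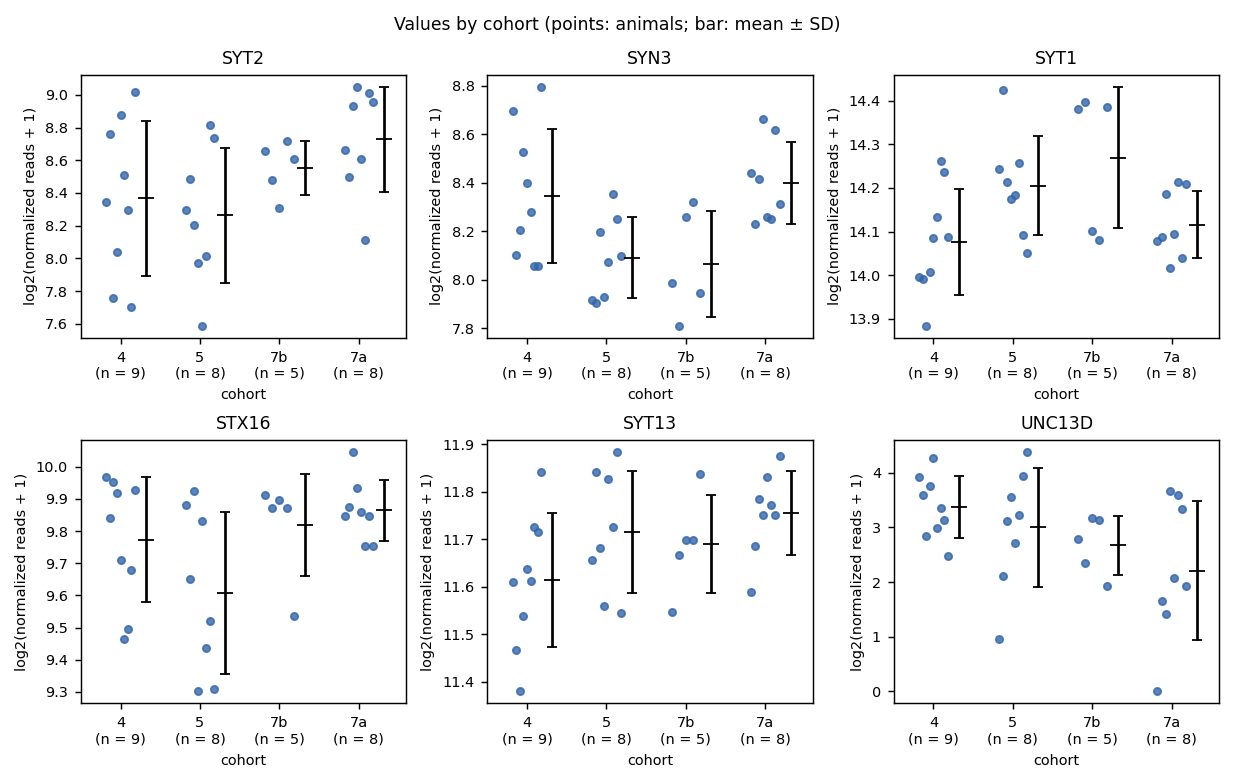
Log2(normalized reads + 1) of 6 genes named in the cohort comparisons in each animal by cohort, with the mean and SD as bars. SYT2 has a median of 324 in cohort 4 and 446 in cohort 7a before the log, and in every panel the cohorts overlap. Against cohort 7a, only 0.039%, 0.077% and 0.255% of all tested genes show no overlap in cohorts 4, 5 and 7b.

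Cohort 5 against 7a held 8 of the 67 genes (11.9%) at an unadjusted p under 0.05, 3 higher and 5 lower, beside 8.59% of all tested genes (4.67% higher and 3.92% lower), and 25 of 67 differences were above 0 beside 52.7%. STX16, a trans-Golgi syntaxin, had 630.0, 768 and 970.1 normalized reads in cohort 5 and 862, 925 and 1057 in cohort 7a, an estimate of −0.26 ± 0.10 (adjusted p = 0.496, limma). Of the 8 cohort 5 animals 6 lay below the cohort 7a mean. STX6, which works in the same compartment, was at −0.16 ± 0.06. SYT10, a sensor of IGF-1 release in olfactory neurons of mice, and STX10 were at 0.34 ± 0.15 and 0.26 ± 0.12. Cohort 5 held 4 VHD, 3 HD, 1 BD and 0 LD animals, so its differences and those of the categories cannot be fully told apart. For STX10, which was lower in VHD and HD against LD, the plain difference between the means of cohorts 5 and 7a was 0.11.

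In cohort 7b, SYN3 had 223, 246, 252, 306 and 319 normalized reads in its 5 animals, against 299, 328 and 405 as lowest, median and highest value in cohort 7a. All 5 lay below the cohort 7a mean, and only the 2 highest reached the cohort 7a range. The estimate was −0.39 ± 0.12 (adjusted p = 0.868, limma). SYT1 had 17331, 17587, 21342, 21416 and 21581 normalized reads in cohort 7b and 16561, 17454 and 19003 in cohort 7a, so that 3 animals, 1 HD and 2 LD, lay above the whole of cohort 7a.

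The SYT1 estimate in cohort 7b was 0.18 ± 0.06 (adjusted p = 0.931, limma). SV2A had 4406, 4922, 5110, 5141 and 5401 in cohort 7b and 3795, 4606 and 5171 in cohort 7a, an estimate of 0.13 ± 0.06 that was 0.077 without BD replicate 1. RIMS3 had 5485, 5660, 6047, 6682 and 6836 in cohort 7b and 5572, 6292 and 6987 in cohort 7a, an estimate of −0.10 ± 0.07 that was −0.06 without LD replicate 1. Here 2 of the 67 genes, SYN3 and SYT1, had an unadjusted p under 0.05 (2.99%), 1 lower and 1 higher, beside 5.04% of all tested genes (2.81% higher and 2.23% lower), and 34 of 67 differences were above 0 beside 52.4%. Over all 4 cohorts, 3 did (4.48%), SYN3, SYT1 and STX10, beside 8.04%.

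Across the 30 animals, 11 pairs of genes with linked products were compared on log2 values, with permutation tests adjusted over the 11 pairs, of which 9 are given. Over all 2211 pairs that the kept genes can form, most r values lay between −0.50 and 0.51. Below, NAPA with NAPB and VAMP1 with SYT2 fall inside that range, and CPLX1 with CPLX2 just above it. The permutation tests did not take this range into account. SYN1 and SYN2 varied together (Pearson r = 0.81, Spearman rho = 0.82, adjusted permutation p = 5.5e-05 for each). The unadjusted p behind both values, 1.0e-05, is the smallest that 100000 permutations can give.

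The synapsin pair had r of 0.89, 0.82 and 0.76 within cohorts 4, 5 and 7a, and 0.79 without the 2 libraries farthest from the median. SYT2 and the interneuron gene PVALB had r = 0.67 and rho = 0.61 (adjusted permutation p = 7.3e-05 and 0.00107), 0.62 without the 2 farthest libraries, and 0.61, 0.74 and 0.86 within cohorts 4, 5 and 7a. Cohort 7b, with 5 animals, was too small for a value.

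NAPA ran against its partners. Drinking category was not removed from the pairs. In HD against LD, NAPA was at −0.31 and NAPB and NSF at 0.26 and 0.18, so the r values below are not separate from those differences. NAPA and NSF had r = −0.61 and rho = −0.62 (adjusted permutation p = 0.000935 and 0.00107), −0.57 without the 2 farthest libraries, and −0.36, −0.64 and −0.71 within cohorts 4, 5 and 7a. NAPA and NAPB had r = −0.49 and rho = −0.54 (adjusted permutation p = 0.0124 and 0.00482), −0.43 without the 2 farthest libraries, and −0.06, −0.72 and −0.56 within cohorts 4, 5 and 7a, so the relation was not seen within cohort 4.

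CPLX1 and CPLX2 had r = 0.53 and rho = 0.55 (adjusted permutation p = 0.00579 and 0.00466), with 0.61 and 0.78 within cohorts 4 and 5, but r = −0.03 within cohort 7a and 0.35 (adjusted permutation p = 0.0823) once library depth was regressed out. VAMP1 and SYT2, both high in fast-spiking cells, had r = 0.47 and rho = 0.48 (adjusted permutation p = 0.0138 and 0.0126), with 0.71 and 0.73 within cohorts 4 and 5 and −0.35 within cohort 7a, so neither relation was seen in cohort 7a. Without the 2 farthest libraries these 2 pairs had r of 0.60 and 0.43. SYT1 and SNAP25 had r = 0.34 and rho = 0.27 (adjusted permutation p = 0.0912 and 0.207), and 0.21, 0.64 and −0.34 within cohorts 4, 5 and 7a. VAMP1 and VAMP2 (r = −0.01, rho = 0.03) and SV2A and SV2B (r = −0.00, rho = −0.02) had adjusted permutation p from 0.934 to 0.989. Within cohorts 4, 5 and 7a the VAMP pair had r of 0.05, −0.50 and −0.01 and the SV2 pair −0.25, −0.14 and 0.19.

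**Figure D5:**
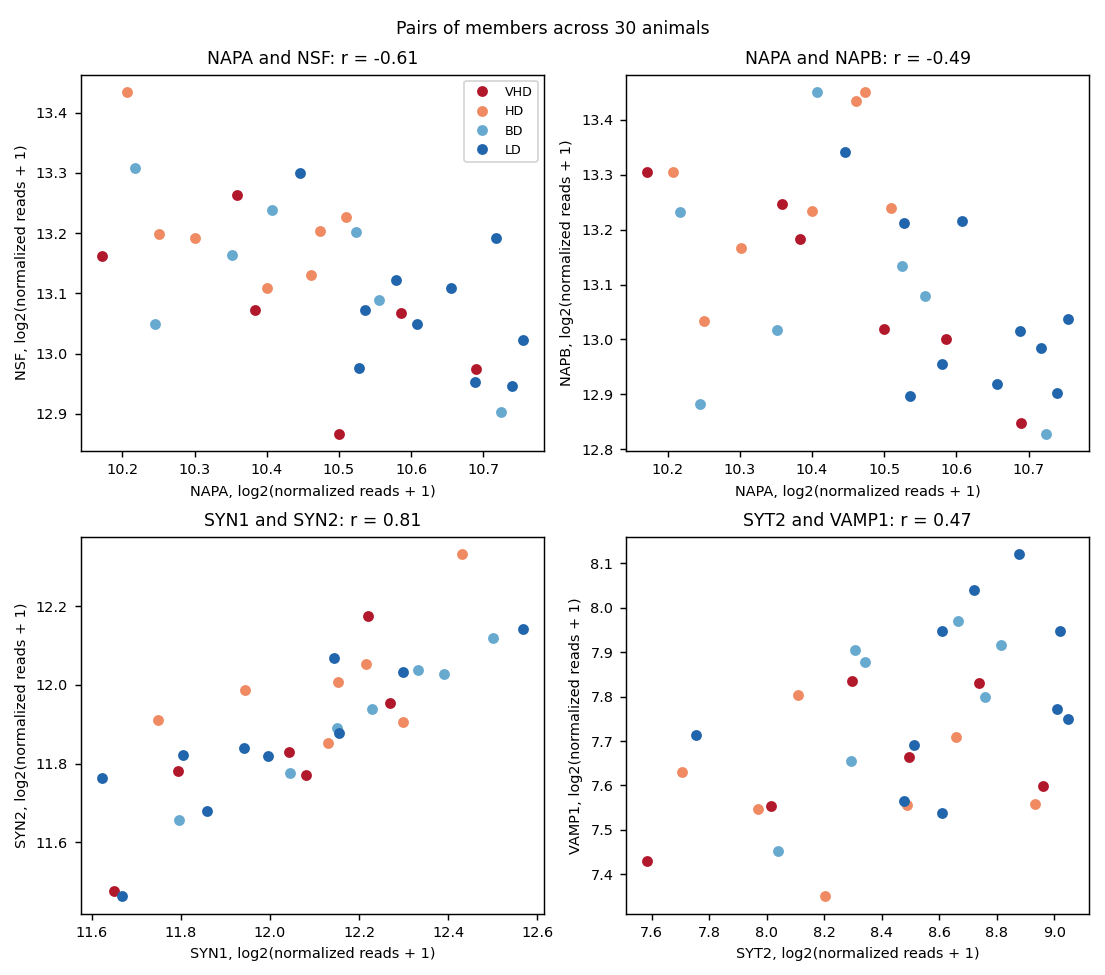
Log2(normalized reads + 1) of pairs of genes in the 30 animals, 1 point per animal, coloured by drinking category. SYN1 and SYN2 vary together (r = 0.81), while NAPA and NSF run in opposite directions (r = −0.61).

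Exon values allowed a look at transcript structure. Each exon was read relative to its gene, as its log2 value minus the mean log2 value of that gene's other tested exons. Of 118342 tested exons 648 belong to these genes, and limma with a variance for each exon called 0 of them in the slope over categories, in VHD against LD and between cohorts, beside 0% of all exons in each. At an unadjusted p under 0.05, the shares of all tested exons were 4.6%, 3.69% and 4.47%.

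An end exon of STX10 (chromosome 19, 12882743 to 12882979, in the coordinates of the exon names) had 0.91, 4.57 and 9.74 normalized reads as lowest, median and highest value in VHD animals, against 0, 0.39 and 9.10 in LD animals. Its relative value was −1.83 ± 1.18 in VHD and −3.40 ± 1.18 in LD animals, an estimate of 1.70 ± 0.61 (p = 0.00996, adjusted p = 0.99995, limma), on a mean of 3.01 normalized reads per library. DiffSplice, which uses 1 variance for all exons of a gene, called this exon (adjusted p = 0.00848) and one of SV2A. An earlier report on the whole series saw such a test call many false exons, so no exon change is read from these calls. An exon of STXBP4 (chromosome 17, 38165008 to 38165124) was at 1.15 ± 0.36 and one of SYT6 (chromosome 1, 114804852 to 114805122) at −1.15 ± 0.38 in VHD against LD. An exon of STX6 (chromosome 1, 185900307 to 185900369) had a slope of 0.30 ± 0.10 per step, with 16.1, 25.2 and 42.6 normalized reads in VHD and 11.4, 14.1 and 30.5 in LD animals.

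Between cohorts the smallest p belonged to an exon of UNC13B (chromosome 9, 62279796 to 62279911), with a relative value of 0.72 ± 0.14 in cohort 4, 0.42 ± 0.20 in cohort 5, 0.59 ± 0.20 in cohort 7b and 0.85 ± 0.19 in cohort 7a (p = 0.00174, adjusted p = 0.99997, limma). Another UNC13B exon (62142081 to 62142198) and one of SYT9 (chromosome 11, 58990128 to 58990248) followed with limma p of 0.0107 and 0.0103.

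Of 41 other genes of the release pathway that were listed beside these, 32 were tested. They include vesicle membrane proteins such as SYP, active zone proteins of the liprin family, RAB3 GTPases and the endocytic genes SYNJ1 and PICALM. None was called at an adjusted p under 0.05 in limma, and at an unadjusted p under 0.05 there were 0 in VHD, 3 in HD (9.38%) and 0 in BD against LD, beside 3.5%, 12.5% and 3.05% of all tested genes. The 3 in HD were higher: SYNJ1, a lipid phosphatase that strips clathrin from vesicles, at 0.22 ± 0.07, PICALM, a clathrin adaptor related to SNAP91, at 0.17 ± 0.07, and the vesicle GTPase gene RAB27B at 0.30 ± 0.12, with adjusted p of 0.314, 0.323 and 0.343 (limma).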

How the data were processed

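The deposited values are, per the file headers and the labels, a signal of reads per gene and per exon that the authors scaled to the upper quartile of each library, and not read counts. Per the submitters' processing notes, CASAVA, FastQC, STAR 2.3.0e and edgeR were used. The genome build, annotation and read counter were not given in the sources used here. Per the labels' protocols, ribosomal RNA was depleted and the kit keeps the strand. Whether counting used the strand is not given, and SYN1 and VAMP1 overlap ARAF and TAPBPL in their end exons. Dividing each library by its smallest step gave whole reads for 100% of values (within 0.01 reads), 4.39 to 13.99 M per library.

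From these values, log2(value + 1) was fitted with limma 3.58.1 (R 4.3.3; lmFit, eBayes with a mean trend) on drinking category and cohort, for the 12935 genes with at least 10 in at least 6 libraries. P-values were adjusted by Benjamini-Hochberg over all tested genes, at 0.05. Exons needed at least 5 in at least 6 libraries. Pairs were tested with 100000 permutations (numpy 2.4.6). Named were, per direction, the genes of smallest p (4 for VHD, 3 for HD, BD and the slope, 4 for cohort 4, and 2 for each of cohorts 5 and 7b), 18 core genes whatever their value, the 3 exons with the smallest p per comparison and 9 of 11 pairs. A pair of core genes and their pairings are not reported here. Genes outside this rule, such as the others with an unadjusted p under 0.05, were named after their values were seen. The roles named for the signs of their genes were likewise picked after the values were seen, and other roles are not given. The genes and lists were chosen with earlier results of these data known. Alternatives were other pseudocounts, filters, scaling (DESeq2 1.42.0 factors), edgeR 4.0.16 with TMM on recovered reads, added or dropped model terms, array weights, fits within a cohort, each library left out, and diffSplice for exons. The methods were tested on simulated data with changes larger than most of the differences named here. Recovery of differences as small as those was not tested. No sequences are shown.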

Additional observations from a re-analysis of the deposited data

Results flagged for a closer look

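For 42 named genes, each of the 4 drinking categories was searched for a library far from the others of its category. Of 168 checks 14 found one. The limit used flags about 1 in 20 for independent, normally spread values. The same libraries recur below and the checks were not run over all tested genes, so no excess over chance can be read from this count. VHD replicate 4 stood highest for CPLX1 (1236 normalized reads, next 789) and RIMS1 (4380.1, next 4085) and lowest for SYT14 (503, next 692). LD replicate 3, the shallowest library, stood lowest for SYT2 (215, next 355), SYT13 (2662, next 3127) and SYT16 (947, next 1210.4). HD replicate 3 stood highest for NSF (11074, next 9588) and SYN2 (5153, next 4247).

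BD replicate 1 stood lowest for SV2A (3795, next 4517) and for UNC13D, where it had 0 normalized reads and the next library 7.99. BD replicate 3 was lowest for STXBP2 (7.39, next 13.7) and BD replicate 7 highest for SYT1 (19642, next 17587). HD replicate 4 was highest for SV2C (331.6, next 159) and VHD replicate 3 lowest for STX8 (129, next 173). No cause was tested for any of these.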

How the results depend on the processing

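None of 3525 recomputed named-gene values was called (lowest adjusted p 0.0980), and 3521 kept any sign, which F tests lack. Most left out 1 library. Of the 67 genes, 0 were called at an adjusted p under 0.05 under every alternative run, edgeR included, and with each library left out. Over all tested genes, the fit without the other term called 26 in cohort 4 and 1 each in cohort 5 and in HD, library number sets 15 in cohort 4 and 1 for any cohort, a minimum of 100 called 1 in cohort 5, and leaving out 1 library called up to 7 in cohort 4 and up to 2 in cohort 5. The sign turned for VAMP7 in BD against LD within cohort 7a (0.23) and, with the marker component in the model, for SYT6 (−0.20), SYT9 (−0.049) and SYT16 (0.025) in cohort 4 against 7a. The pair VAMP1 and VAMP2 turned to r = 0.065 with depth regressed out and 0.082 without the 2 farthest libraries. SYT1 and SNAP25 had r = 0.56 (adjusted permutation p = 0.00216) with depth regressed out, and the cause was not tested.

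DiffSplice, which gives the exons of a gene 1 variance, called 2 exons in VHD against LD and 2 in the slope, in STX10 (adjusted p = 0.00848 and 0.00033) and in SV2A (chromosome 1, 123863895 to 123864013; adjusted p = 4.4e-06 and 8.5e-08), where a variance for each exon called 0. A test of this kind was seen to call many false exons in an earlier report on the whole series. Its share of calls over all tested exons is not given here, so these calls are not read as changes in the 2 genes. DiffSplice was run neither between cohorts nor with libraries left out. With a variance for each exon, calls stayed at 0 with each library left out.

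Counts of the 67 genes at an unadjusted p under 0.05 moved more, and are given with the share of all tested genes in parentheses. For VHD, 4 as reported (3.5%), array weights gave 9 (8.09%), cohort 7a alone 2 (5.6%) and libraries above 6 M reads 7 (5.06%). For HD, 15 (12.5%), library number sets gave 5 (4.61%), cohort 7a alone 4 (5.28%) and cohort 4 alone 2 (2.18%). For BD, 3 (3.05%), array weights gave 11 (10.6%), cohort 7a alone 9 (9.49%) and the fit without cohort 5 (2.99%). For any category, 6 (5.62%), array weights gave 20 (17.4%), the marker component 10 (6.58%), no filter 3 (5.4%), edgeR 3 (5.16%), library number sets 2 (2.91%) and cohort 4 alone 2 (1.7%). For the slope, 7 (6.18%), array weights gave 13 (14.3%), the fit without cohort 11 (11.3%), cohort 7a alone 2 (5.19%) and cohort 4 alone 1 (1.76%). For any cohort, 3 (8.04%), library number sets gave 6 (10.6%), the depth term 5 (9.11%) and the marker component 5 (5.75%). Cohort 4, 3 (9.15%), had 6 (10.2%) with library number sets, cohort 5, 8 (8.59%), had 5 (8.08%) above 6 M reads, and cohort 7b, 2 (5.04%), had 4 with array weights (7.41%) or the depth term (5.78%). Slopes that differ, 0 (2.24%), had 4 (4.67%) with array weights, 3 (2.11%) with the marker component, 3 (3.63%) above 6 M reads and 1 (3.96%) with library number sets.

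Leaving out 1 library gave 3 to 6 for VHD (2.49 to 6.29% of all tested genes), 9 to 17 for HD (8.67 to 16.6%), 2 to 9 for BD (2.5 to 5.57%), 4 to 9 for the slope (3.87 to 9.18%), 2 to 9 for any category (4.31 to 8.47%), 0 to 5 for any cohort (6.51 to 9.48%), 1 to 6, 4 to 10 and 2 to 5 for cohorts 4, 5 and 7b against 7a (7.46 to 11.4%, 6.28 to 10.6% and 3.76 to 6.34%), and 0 to 2 for slopes that differ (1.76 to 2.81%). BD had 9, 8 and 5 without LD replicate 3, BD replicate 7 and BD replicate 6, and the slope 4 without LD replicate 8. Any category had 2 without HD replicate 3 and 3 without VHD replicate 2, BD replicate 3 or LD replicates 5, 6 or 8. Any cohort had 0 without LD replicate 1 and 5 without VHD replicate 1 or HD replicate 6. Cohort 4 had 6 without BD replicate 1 and 1 without HD replicate 4, BD replicate 3, LD replicate 4 or VHD replicate 5. Cohort 5 had 4 without HD replicates 4 or 5 and 5 without LD replicate 8, BD replicate 6 or VHD replicate 5. Cohort 7b had 4 without BD replicate 1 and 5 without HD replicate 3 or LD replicate 2. Slopes that differ had 2 without VHD replicate 1 and 1 without LD replicates 3, 4, 8 or 10. Without the cohort term, NAPA was at −0.18 in VHD, −0.25 in HD and −0.19 in BD, and STX10 at −0.19 in VHD and −0.22 in HD. No paired analysis was possible because each animal gave 1 library and the replicate numbers only name samples. The pair UNC13A and RIMS1 was not run. Genes near 10 normalized reads rest on few reads in libraries of as few as 4.39 M reads, and with 6 to 10 animals a group a lack of calls does not show that levels were alike.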
